A study of Rattus norvegicus with 16 samples.

Results

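Left ventricles (LVs) of adult male Sprague-Dawley rats 24 weeks after the creation of an aortocaval fistula (ACF) were compared with LVs of control rats of the same strain and sex. An ACF joins the abdominal aorta to the inferior vena cava, so that blood returns to the heart without passing through the tissues and the heart carries a volume overload (VO). The comparison used 8 of the 16 arrays of the series, chosen by their titles, of which 4 were taken at 24 weeks after ACF and 4 from control rats. The other 8 arrays, 4 at 8 weeks and 4 at 16 weeks after ACF, entered the model and served to set 24 weeks beside the earlier times. The titles call the control arrays baseline, whereas the study describes sham-operated rats as its controls, so age and surgery cannot be told apart from the fistula in what follows. The 4 arrays at 24 weeks carry a different week each in their descriptions, 24, 25, 26 and 27, and were kept as a single group by their titles. Nothing in the labels says more about how the samples of a group were obtained, so the p values measure the spread between these samples. The study described heart function at 8 and 16 weeks after ACF, and not at 24 weeks.

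Under a volume overload the ventricle dilates, and its wall is stretched with each filling. Cardiomyocytes answer stretch with natriuretic peptides and with fetal forms of contractile proteins, while fibroblasts and resident macrophages of the wall rebuild the matrix of collagen and elastic fibres that ties the muscle together. The adult heart draws most of its energy from the oxidation of fatty acids in mitochondria, and the genes of that pathway are known to fall in many forms of heart failure.

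Values are log2 intensities minus the median of their array, so 0 is the median probe set of the array and a difference of 1 is a 2-fold difference. The arrays lay at 2 levels before that centring, with medians from 5.92 to 5.96 on the 24-week arrays and from 6.13 to 6.17 on the control arrays. The lower level also held 1 array at 8 weeks and 2 at 16 weeks, so 24 weeks and control share no level, and the level can be set apart from ACF only through the 8- and 16-week arrays. The mean of 21 ventricular cardiomyocyte markers lay within 0.04 of the control mean on all 8 arrays. Of 8 atrial markers 0 passed the test (limma), with 1 higher and 0 lower at an unadjusted p under 0.05, but single arrays stood apart. The mean of the atrial list ran from -0.15 to 1.81 at 24 weeks and from -0.76 to 1.12 in control. The atrial light chain gene Myl7 was at 0.45, 2.92, 6.55 and 1.93 on the 24-week arrays 1 to 4, against -0.34, 5.19, -0.45 and 6.34 on the control arrays 1 to 4. Sarcolipin, Sln, another atrial gene, had its highest values on the same pair of arrays, 4.30 on 24-week array 3 and 2.50 on control array 4. Probe sets at the 3′ and 5′ ends of the Gapdh transcript, used as a check of RNA integrity, differed by 0.56 to 0.75 on the 24-week arrays and by 0.37 to 0.67 on the control arrays. In powdered LV, fewer cells of a type and less RNA per cell cannot be told apart.

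At 24 weeks after ACF, 87 genes were upregulated and 42 downregulated against control among 14218 genes tested, 0.612% and 0.295% of them (limma, Benjamini-Hochberg adjusted p under 0.05, n = 4 arrays per group). At an unadjusted p under 0.05, 8.8% of all genes were higher and 7.42% lower, and 50.1% of all genes had a difference over 0 and 49.9% under 0. The median of the upregulated genes was 0.89 on the log2 scale, with a range from 0.39 to 3.68, and 36 of them differed by more than 2-fold. The downregulated genes changed less, with a median of -0.64 and a range from -1.05 to -0.39, and 1 of them differed by more than 2-fold. The 4 arrays of each group did not overlap for 84 of the upregulated genes and all 42 of the downregulated ones. These genes were called by a test on the same arrays, so this follows largely from the calling and is no further support. Over all genes, 4.82% had each 24-week array above the control arrays and 4.46% had each below. With values as deposited, without centring, the split was 81 upregulated and 1594 downregulated. The methods' t-test with the same adjustment called 0 genes, although 1079 were higher and 1000 lower at an unadjusted p under 0.05 by it. Of the 40 called genes with further probe sets, 48 of the 62 further probe sets had the same sign. In a fit of all probe sets, 9 of the 62 passed with the same sign, and 11 genes had a further probe set of opposite sign.

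The number of calls depended on single arrays. Without 24-week array 4, 378 genes were upregulated and 180 downregulated. Before centring, that array had the highest lower quartile (4.5062) and the lowest upper quartile (7.5682) of the 24-week arrays. Its intensities were thus the least spread of that group, and centring on the median leaves such a difference in place. Whether the narrower spread accounts for the change in calls was not tested. Leaving out 24-week arrays 1, 2 or 3 gave 49, 17 and 16 upregulated and 29, 7 and 8 downregulated genes. Leaving out control arrays 1, 2 or 3 gave 3, 4 and 14 upregulated and 2, 2 and 9 downregulated genes, and without control array 4 there were 89 and 49. The calls without control array 4 held 96 of the 129 genes called with all arrays. Of the 129 called genes, 5 passed in each of these 8 refits, namely Dnah7, Colec11, Mrc1, Crybb1 and Ccdc187. Without control array 4 and 24-week array 3 together, the 2 arrays with the highest atrial markers among the 8 of 24 weeks and control, 21 genes were upregulated and 14 downregulated, among them 18 of the 87 and 11 of the 42. The bars of calls with each array left out show the counts side by side.

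**Figure D1:**
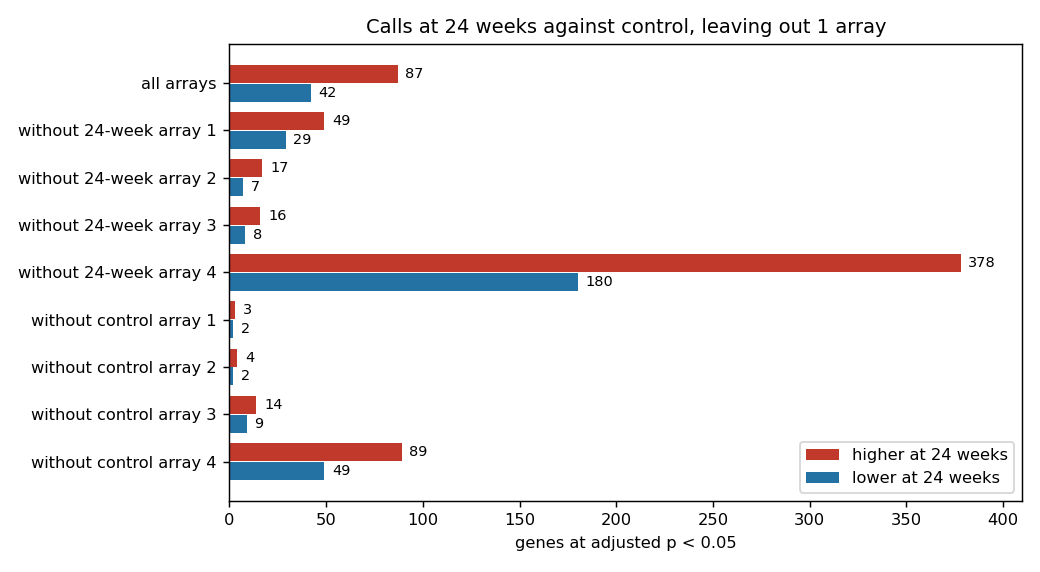
Number of genes at adjusted p under 0.05 (horizontal axis) at 24 weeks after ACF against control, with all arrays and with each of the 8 arrays left out in turn (vertical axis); the upper bar of each pair counts genes higher at 24 weeks and the lower bar genes lower. The counts run from 378 and 180 without 24-week array 4 down to 3 and 2 without control array 1.

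With the level of the arrays as a block in the model, 2 genes passed, Folr2 with a log2 difference of 1.03 and Timp1 with 2.80, both upregulated (adjusted p = 0.0419 each). At an unadjusted p under 0.05 that fit held 1117 higher and 747 lower genes. All 87 upregulated and all 42 downregulated genes kept their sign in it, with medians of 0.90 and -0.56. The values with the block lay between 0.32 and 1.61 times the values without it, and the block assumes that the level acted alike in every group. The plot of both values shows the genes on either side of the line of equal values.

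**Figure D2:**
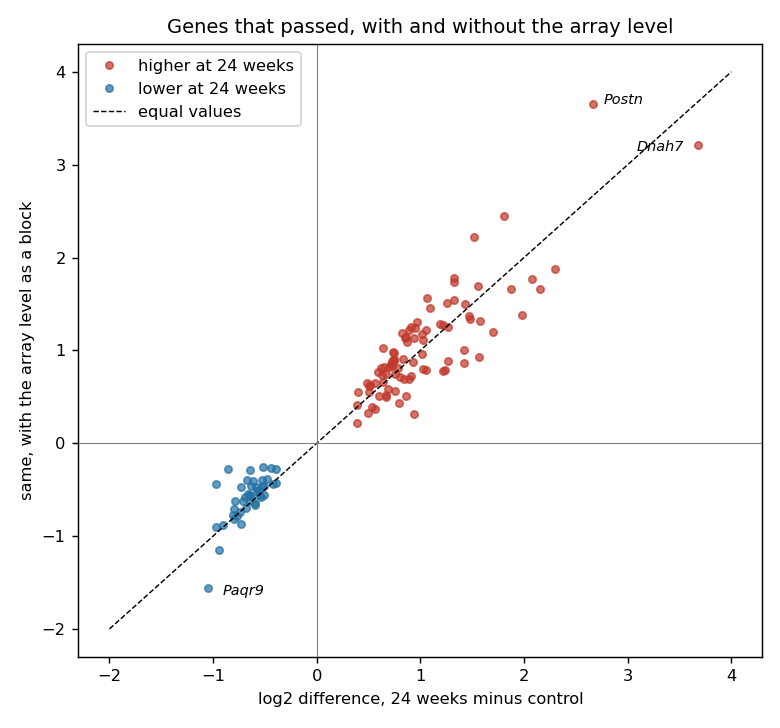
Log2 difference between 24 weeks and control without (horizontal axis) and with (vertical axis) the level of the arrays as a block, for the 129 called genes. Each point is a gene, red for the 87 higher and blue for the 42 lower at 24 weeks, and all of them lie in the quadrant of their own sign.

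The gene with the largest rise was Dnah7, which encodes a heavy chain of the dynein of cilia. Its levels were 3.07, 3.19, 1.67 and 1.01 on the 24-week arrays, against -0.83, -2.16, -0.43 and -2.37 on the control arrays. The groups did not overlap, and Dnah7 was 12.8-fold higher (log2 difference 3.68, SE 0.52, adjusted p = 0.00729). Among genes of no fixed list, Cpeb1, which controls the polyadenylation of mRNAs, was at 2.17, 2.45, 1.56 and 0.96 at 24 weeks and between 0.10 and 0.26 in control (log2 difference 1.57, SE 0.30, adjusted p = 0.0240). Cnpy1 was at 1.14, 0.81, -0.70 and -0.86 at 24 weeks, against -2.10 to -1.45 in control (1.88, SE 0.35, adjusted p = 0.0231). Its first pair of 24-week arrays lay far above the second pair, and all 4 were above control. Otud1, a deubiquitinase gene, rose by 1.98 (SE 0.45, adjusted p = 0.0453), and Tmem119, known as a marker of microglia, by 2.08 (SE 0.41, adjusted p = 0.0251), with 24-week array 4 at -0.08 and the other 3 from 1.24 to 2.77. Acer2, a ceramidase gene, rose by 1.43 (adjusted p = 0.0225) and Tnfrsf11b, which encodes the decoy receptor osteoprotegerin, by 1.42 (adjusted p = 0.0225). The further probe sets for Acer2 had differences of 1.125 and 0.386. Akip1, whose product binds protein kinase A, rose by 1.47 (adjusted p = 0.0146), while of 7 further probe sets for Akip1, 3 had differences from 1.39 to 1.70 and 4 from -0.26 to -0.05. Maoa, the gene of monoamine oxidase A of the outer mitochondrial membrane, stood at 7.18, 7.24, 7.25 and 6.71 at 24 weeks and at 5.48, 5.82, 6.29 and 5.85 in control (1.24, SE 0.20, adjusted p = 0.0132). In the refits without 1 array each, Dnah7 passed in 8 of 8, Maoa and Akip1 in 6, Tnfrsf11b in 5, Cnpy1 in 4, Acer2 and Tmem119 in 3, Cpeb1 in 2 and Otud1 in 1. Maoa is named here although it is in neither a list nor the leading genes, and was chosen after its values were seen.

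**Figure D3:**
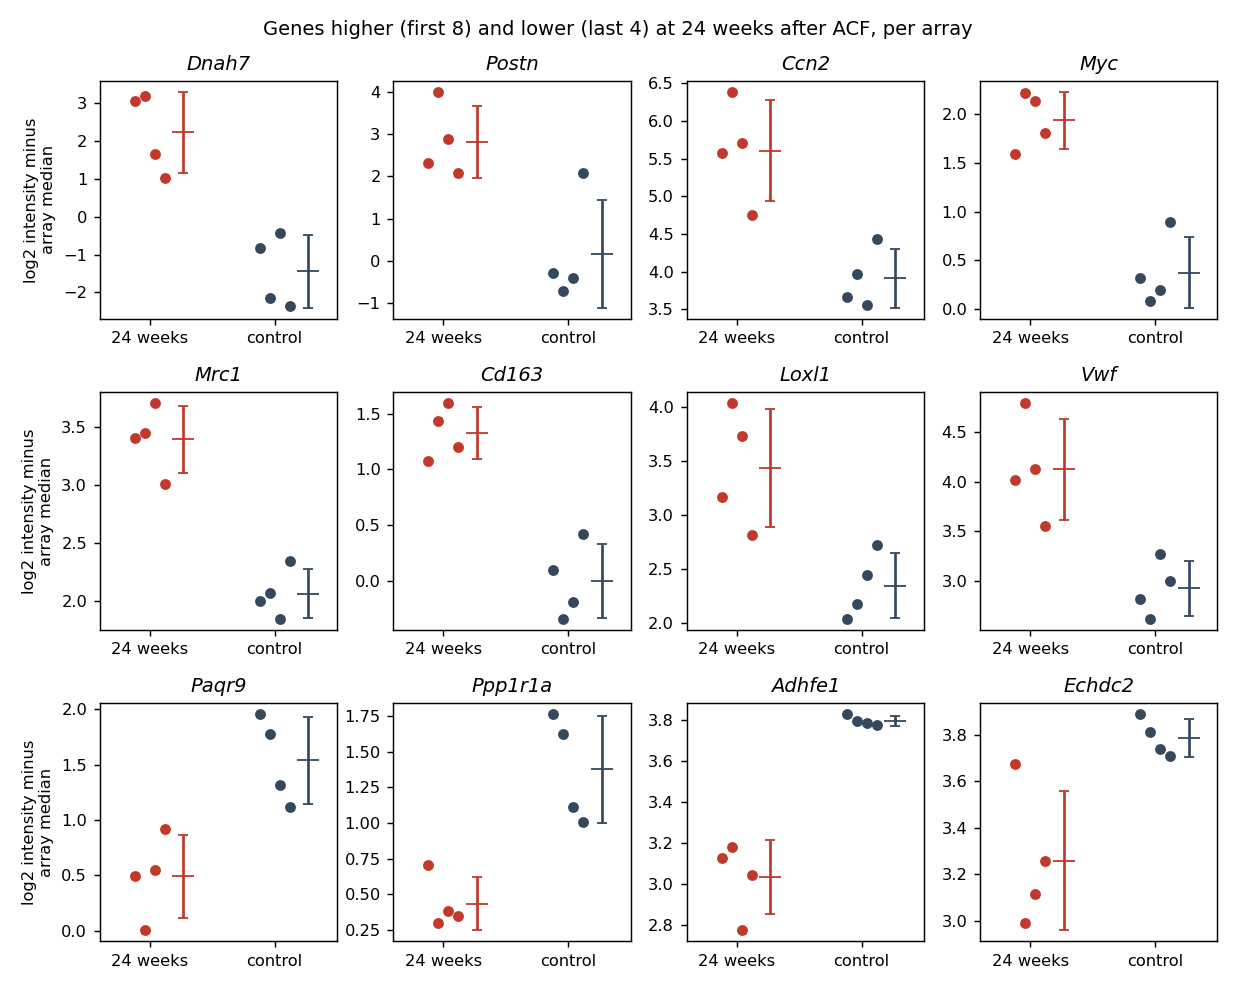
Log2 intensity minus the array median (vertical axes) of 12 genes on the 4 arrays at 24 weeks (left, red) and the 4 control arrays (right, dark), with arrays 1 to 4 from left to right, and the mean and SD beside them. The groups do not overlap in any of the 12 panels, and the closest arrays are those of Postn, at 2.09 on 24-week array 4 and 2.07 on control array 4.

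Genes of the matrix that activated fibroblasts lay down were upregulated in part. Postn, periostin, a matricellular protein of activated fibroblasts, had levels of 2.31, 4.01, 2.88 and 2.09 at 24 weeks, against -0.30, -0.71, -0.41 and 2.07 in control. Control array 4 lay just under the lowest 24-week array, and the other 3 control arrays more than 2 below it. The difference was 2.66 (SE 0.54, adjusted p = 0.0286), and 3.30 without control array 4 (adjusted p = 0.00631). Ccn2, connective tissue growth factor, was at 5.58, 6.39, 5.70 and 4.76 at 24 weeks and at 3.67, 3.98, 3.56 and 4.43 in control, again with the closest arrays being 24-week array 4 and control array 4. It rose by 1.70 (SE 0.37, adjusted p = 0.0418). Thbs4 and Ccn5, of the same list, had differences of 2.31 and 1.79 that missed the threshold (adjusted p = 0.0667 each). Of 19 matricellular genes, 2 rose, 0 fell and 17 did not pass, with a median of 0.33, beside 0.00 over all genes. Among all genes, 0.612% rose and 0.295% fell. With control array 4 and 24-week array 3 left out, 1 of the 19 rose. Among 16 fibroblast markers, Postn and Mfap5 rose and 14 did not pass (median 0.29), and the mean of the list ran from 0.23 to 0.75 above the control mean at 24 weeks, against -0.17 to 0.38 in control, where array 4 was the highest. Postn passed in 3 of the 8 refits without 1 array and Ccn2 in 2.

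Of 21 collagen genes, 2 rose, 0 fell and 19 did not pass (median 0.09). At an unadjusted p under 0.05, 5 of them were higher and 0 lower, beside 8.8% and 7.42% of all genes. Col8a1, a chain of the short network collagen of vessel walls, was at 2.11, 3.62, 2.66 and 2.15 at 24 weeks and at 0.77, 0.95, 1.26 and 1.35 in control, without overlap, and rose by 1.55 (SE 0.27, adjusted p = 0.0181). Col14a1, a collagen on the surface of fibrils, rose by 1.05 (SE 0.19, adjusted p = 0.0211). Col8a2, the other chain of the network collagen, and Col12a1, another collagen of the fibril surface, had differences of 1.26 and 0.77 (adjusted p = 0.119 and 0.212). The chains of the main fibrillar collagens did not pass. Col1a1 was at 3.56, 3.95, 3.96 and 3.80 at 24 weeks, against 3.25, 3.21, 3.32 and 4.01 in control (0.37, adjusted p = 0.386), and Col3a1 differed by 0.24 (adjusted p = 0.358). Of both genes control array 4 had the highest control level, and for Col1a1 it lay above all 24-week arrays. Without control array 4 and 24-week array 3, 1 of the 21 rose. Col6a5, a chain of the microfibrillar collagen that was not in the list, fell by 0.97 (SE 0.19, adjusted p = 0.0235), with -1.22, -1.84, -1.49 and -1.10 at 24 weeks against -0.70 to -0.22 in control. The chains Col6a1, Col6a2 and Col6a3 of that collagen differed by -0.04, -0.09 and -0.03 (adjusted p = 0.926, 0.811 and 0.949). Among 14 collagen-modifying enzymes Loxl1 was the gene that rose (median 0.27), while P4ha1, a prolyl hydroxylase, had a difference of 0.94 that did not pass (adjusted p = 0.133). Of 21 proteoglycan genes 0 passed, with 8 higher and 2 lower at an unadjusted p under 0.05, and the smallest adjusted p was that of Omd, osteomodulin (0.63, adjusted p = 0.0596). Col8a1 passed in 5 of the 8 refits without 1 array, Col14a1 and Col6a5 in 4.

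The elastic fibre is built from elastin on a scaffold of fibrillin microfibrils. Its list had 3 upregulated genes of 20 (limma, median 0.47), of which 0 passed without control array 4 and 24-week array 3. At an unadjusted p under 0.05, 11 genes of the list were higher and 0 lower. Among all genes, 0.612% were upregulated, and 8.8% were higher and 7.42% lower unadjusted. Loxl1, which cross-links elastin, was at 3.17, 4.04, 3.73 and 2.81 at 24 weeks and at 2.04, 2.18, 2.44 and 2.72 in control (log2 difference 1.09, SE 0.22, adjusted p = 0.0276). Fbn1, fibrillin-1, was at 2.93, 4.01, 3.71 and 3.06 at 24 weeks, against 2.34, 2.40, 2.27 and 2.97 in control, so that control array 4 lay above 24-week array 1. It rose by 0.94 (SE 0.21, adjusted p = 0.0415), and Mfap5, a glycoprotein of the microfibril, by 0.91 (SE 0.20, adjusted p = 0.0415). Ltbp2, which also binds the microfibril, had a difference of 1.01 (adjusted p = 0.0642). Eln, which encodes elastin itself, did not pass, with 0.63, 0.72, 0.79 and 0.57 at 24 weeks and 0.73, 0.36, 0.83 and 1.00 in control (-0.05, SE 0.13, adjusted p = 0.887). Among 19 proteases that cut elastin and their inhibitors, Ctss, Ctsb and Ctsk, the cathepsins S, B and K of lysosomes, and Timp2, an inhibitor of metalloproteinases, rose by 0.75, 0.51, 0.59 and 0.49 (adjusted p = 0.0281, 0.0414, 0.0478 and 0.0358). All of their 24-week arrays were above all control arrays, and 15 genes of the list did not pass (median 0.32, 6 higher and 0 lower unadjusted). Of this list too, 0 passed without control array 4 and 24-week array 3. Timp1, another inhibitor, had 2.29, 2.83, 2.54 and 1.91 at 24 weeks and 1.11, 0.91, 0.89 and 1.60 in control without overlap, yet missed the threshold (1.27, SE 0.45, adjusted p = 0.164), and passed with the level of the arrays as a block. Loxl1, Fbn1 and Mfap5 passed in 3 of the 8 refits without 1 array, and Ctss, Ctsb, Ctsk and Timp2 in 2.

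Macrophage markers had the largest share of called genes among the 48 lists. Of 20 measured markers 7 rose, 0 fell and 13 did not pass, and 11 had all 24-week arrays above all control arrays (median 0.71, with 15 higher and 0 lower at an unadjusted p under 0.05). Over all genes, 4.82% had each 24-week array above control, and 8.8% were higher and 7.42% lower unadjusted. Mrc1, the mannose receptor of resident macrophages, was at 3.40, 3.45, 3.70 and 3.00 at 24 weeks and at 2.00, 2.07, 1.85 and 2.35 in control. The lowest 24-week array was well above the highest control array, and the rise was 1.32 (2.51-fold, SE 0.19, adjusted p = 0.00729). Cd163, the scavenger receptor for haemoglobin, was at 1.07, 1.43, 1.59 and 1.20 at 24 weeks, against 0.10, -0.34, -0.19 and 0.42 in control (1.33, SE 0.23, adjusted p = 0.0175). Csf1r, the receptor for the growth factor that keeps macrophages alive, rose by 0.69 (adjusted p = 0.0281), and Folr2, a folate receptor of resident macrophages, by 0.64 (adjusted p = 0.0358). Fcgr2b, the inhibitory Fc receptor, rose by 1.52 (adjusted p = 0.0443), and Gpnmb, a lysosomal glycoprotein of lipid-laden macrophages, by 1.32 (adjusted p = 0.0358). Cd68, the general macrophage marker, had levels of 1.17, 1.39, 1.17 and 0.67 at 24 weeks, against 0.52 to 0.71 in control, and did not pass (0.51, adjusted p = 0.281). In the mean of the list, the 24-week arrays lay at 0.74, 0.91, 0.87 and 0.41 above the control mean, and the control arrays between -0.14 and 0.18. Array 4 was again the 24-week array nearest to control, and it was also the array of that group with the narrowest spread of intensities. Whether that spread bears on its place was not tested. Without control array 4 and 24-week array 3, 2 markers passed and the median was 0.68. Mrc1 passed in all 8 refits without 1 array, Cd163 in 3, Csf1r, Fcgr2b and Gpnmb in 2, and Folr2 in 1. With the level of the arrays as a block, the median of the list was 1.19, Folr2 passed, and Mrc1, C1qa and Cd163 lay just outside the threshold (adjusted p = 0.0524, 0.0524 and 0.0534).

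Among 18 complement genes, 4 rose and 0 fell (median 0.54, 14 did not pass), and 1 rose without control array 4 and 24-week array 3. Among all genes, 0.612% rose and 0.295% fell. With the level of the arrays as a block, the median of the complement list was 0.83. Colec11, a collectin that starts the lectin pathway, was at 2.24, 2.93, 1.97 and 2.19 at 24 weeks and at 0.75, 0.77, 0.65 and 1.26 in control (2.78-fold, log2 difference 1.48, SE 0.19). Its adjusted p was 0.00656, and it passed in all 8 refits without 1 array. C1qa, a chain of the recognition molecule of the classical pathway, rose by 0.86 (SE 0.14, adjusted p = 0.0146, 6 of 8 refits). Cd55, which protects host cells from complement, rose by 1.25 (adjusted p = 0.0358), although 24-week array 4, at 0.74, lay under control array 2, at 0.77. Cfd, complement factor D and a product of adipocytes as well, rose by 0.82 (adjusted p = 0.0480). Both passed in 2 of the 8 refits. C1qa also counts as a macrophage marker and Cfd as an adipocyte marker. In the lists of other immune functions few genes passed. Of 26 chemokines and their receptors and of 20 interferon-stimulated genes 0 passed (3 higher and 1 lower, and 1 higher and 2 lower, at an unadjusted p under 0.05), and of 19 genes of antigen presentation 1 did, Ctss. Among 16 markers of T, NK and B cells 15 did not pass, and Cd79b, a chain of the B cell receptor, fell by 0.64 (SE 0.13, adjusted p = 0.0303). Outside these lists, Ackr2, an atypical chemokine receptor gene, rose by 1.03, and its further probe set had a difference of 0.34. It passed in 4 of the 8 refits. The lymphocyte receptor genes Klrb1a and Cd96 were downregulated and the cytokine receptor gene Csf2ra was upregulated, each passing in 1 of the 8 refits. These genes were chosen after their values were seen.

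The promoters of the called genes were searched for motifs of factors known to act on stretch, stress and clock genes. RefSeq promoters (GRCr8) matched 72 of the 87 upregulated and 31 of the 42 downregulated genes, and the 250 bases before the start were read on both strands. The motif CATTCC, bound by TEAD factors, was in 8.33% of the promoters of upregulated genes and 16.1% of those of downregulated genes, beside 10.4% of the 11701 promoters of genes tested and 11.8% of all 27457 promoters. In the same order, the AP-1 motif TGACTCA was in 5.56%, 0%, 3.45% and 3.98%, the E-box CACGTG in 5.56%, 6.45%, 7.85% and 5.79%, and the D-box TTATGTAA in 2.78%, 0%, 0.479% and 0.816%. The shares of called genes stood on 0 to 6 promoters with a motif. Shown here are 3 of the promoters with a motif, those of the matrix genes Ccn2 and Loxl1 and of the macrophage gene Gpnmb, picked after the matches were seen, with the motif or its reverse complement in capitals. Ccn2 lies at chr1:22624615-22624864 on the minus strand, Loxl1 at chr8:67612225-67612474 on the minus strand and Gpnmb at chr4:79340878-79341127 on the plus strand.
Ccn2: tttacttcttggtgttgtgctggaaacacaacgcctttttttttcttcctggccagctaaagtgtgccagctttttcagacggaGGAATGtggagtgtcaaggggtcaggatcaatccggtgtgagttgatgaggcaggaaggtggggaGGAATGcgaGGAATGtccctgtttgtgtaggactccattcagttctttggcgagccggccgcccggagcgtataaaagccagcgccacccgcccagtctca
Loxl1: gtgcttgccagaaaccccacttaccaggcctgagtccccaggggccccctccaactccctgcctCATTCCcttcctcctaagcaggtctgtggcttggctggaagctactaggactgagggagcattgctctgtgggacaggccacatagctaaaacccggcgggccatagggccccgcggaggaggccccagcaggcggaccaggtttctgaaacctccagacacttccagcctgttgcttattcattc
Gpnmb: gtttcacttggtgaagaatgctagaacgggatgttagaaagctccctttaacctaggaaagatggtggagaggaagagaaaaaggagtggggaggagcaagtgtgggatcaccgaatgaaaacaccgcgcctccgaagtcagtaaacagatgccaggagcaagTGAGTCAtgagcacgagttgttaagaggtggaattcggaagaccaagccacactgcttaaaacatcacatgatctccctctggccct
The Ccn2 promoter held the TEAD motif 3 times, at 166, 101 and 92 bases before the start. The Loxl1 promoter held it once, at 186 bases, and the Gpnmb promoter held the AP-1 motif once, at 87 bases. A match of letters is not a bound site, and promoters without a match give no information on the factors.

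**Figure D4:**
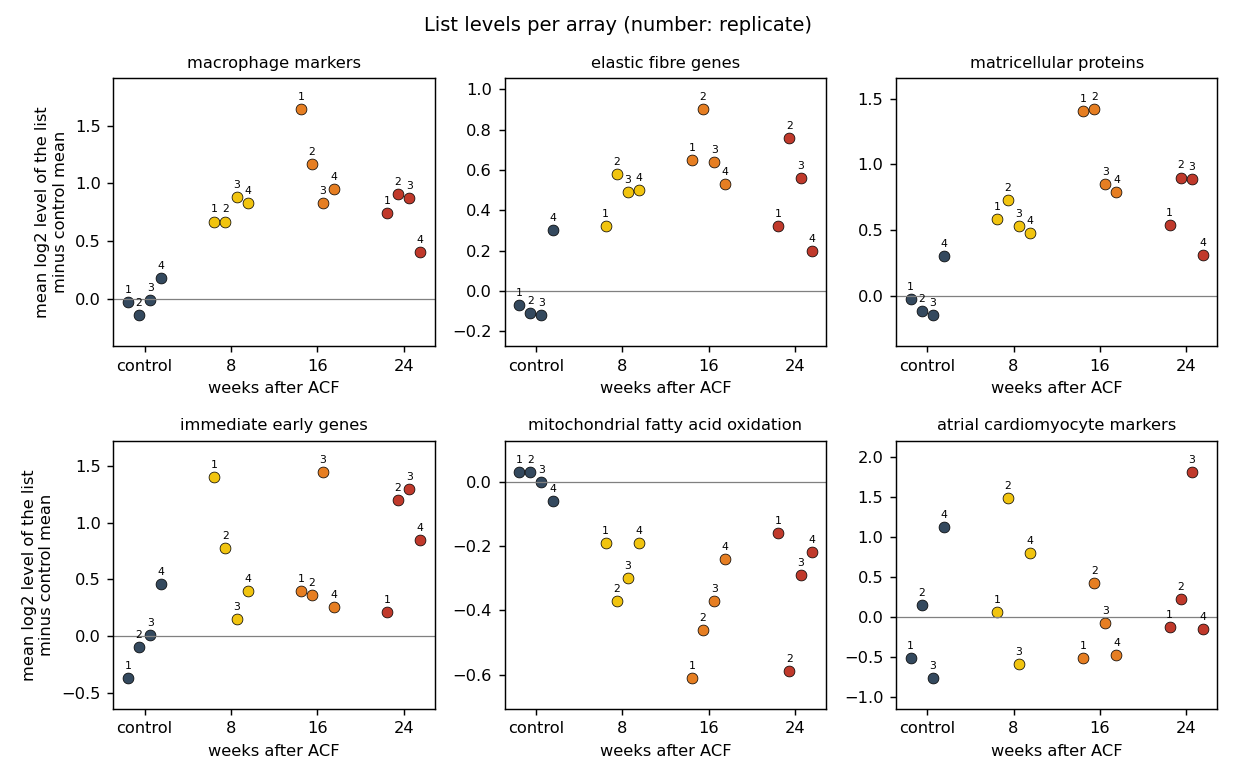
Mean log2 level of 6 gene lists on each of the 16 arrays minus the mean of the control arrays (vertical axes), for control and for 8, 16 and 24 weeks after ACF (horizontal axes); numbers beside the points are the replicates. At 24 weeks the macrophage list lies between 0.41 and 0.91 and the fatty acid oxidation list between -0.59 and -0.16, both outside the control range. Control array 4 reaches the 24-week range in the elastic fibre and immediate early lists. In the atrial list 24-week array 3 (1.81), 8-week array 2 (1.49), control array 4 (1.12) and 8-week array 4 (0.80) lie highest.

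Stress transcription factors were among the leading genes. Myc was at 1.59, 2.21, 2.14 and 1.81 at 24 weeks, against 0.32, 0.08, 0.19 and 0.89 in control (log2 difference 1.56, SE 0.34, adjusted p = 0.0398). Atf3, which is induced within hours of many stresses, was at 0.59, 2.29, 1.79 and 1.43 at 24 weeks and at -0.98, -0.96, -0.76 and -0.40 in control (2.30, SE 0.53, adjusted p = 0.0492). Neither overlapped, and 24-week array 1 was the lowest of its group in both. These were the 2 of 19 immediate early genes that passed, and the list had a median of 0.67. At an unadjusted p under 0.05, 8 of the 19 were higher and 0 lower, beside 8.8% and 7.42% of all genes. With the level of the arrays as a block, that median was 0.285. The mean of the list was 0.21, 1.20, 1.30 and 0.85 above the control mean on 24-week arrays 1 to 4, and -0.37, -0.10, 0.01 and 0.46 on control arrays 1 to 4, so the lowest 24-week array was under the highest control array. Without control array 4 and 24-week array 3, 0 genes of the list passed. Hspa1a, an inducible heat shock protein gene, was at 5.63, 7.25, 3.38 and 3.11 at 24 weeks, against 2.69 to 3.18 in control (1.99, SE 0.64, adjusted p = 0.132). It was high on 24-week arrays 1 and 2 and near control on arrays 3 and 4. Of 20 heat shock and unfolded protein genes 0 passed, with 6 higher and 0 lower at an unadjusted p under 0.05. Hmox1, the haem oxygenase of the antioxidant list, had a difference of 1.00 without overlap (adjusted p = 0.0636), and 0 of 23 antioxidant genes passed (5 higher and 0 lower unadjusted). Myc and Atf3 passed in 2 of the 8 refits without 1 array.

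The markers by which hypertrophy is usually followed did not pass at 24 weeks. Nppa, the precursor of atrial natriuretic peptide, was at 6.87, 8.32, 7.42 and 7.37 at 24 weeks and at 6.90, 5.82, 4.21 and 5.71 in control. Control array 1 lay just above 24-week array 1, the other 3 control arrays lay below all 24-week arrays, and the difference of 1.83 missed the threshold (SE 0.45, adjusted p = 0.0596, exact permutation p = 0.0571). Nppb, the precursor of the ventricular peptide, was at 6.50, 7.07, 6.41 and 6.56 at 24 weeks and from 5.88 to 6.32 in control, without overlap (0.59, SE 0.22, adjusted p = 0.197). The clearance receptor gene Npr3 had a difference of 0.55 (adjusted p = 0.0749). The alpha and beta myosin heavy chains, Myh6 and Myh7, whose ratio turns toward beta in rat heart failure, differed by -0.22 (SE 0.22, adjusted p = 0.657) and by 0.16 (SE 0.11, adjusted p = 0.494). Before centring, Myh7 stood between 14.10 and 14.25 on the 24-week arrays, whose maxima were 14.42 to 14.48, and between 13.85 and 14.40 on the control arrays, whose maxima were 14.59 to 14.61, and so was close to the top of the scale. Acta1 and Ankrd1, a fetal actin and a stretch-responsive gene, differed by 0.10 and 0.19 (adjusted p = 0.722 and 0.462). Of 26 genes of the list 0 passed, with 5 higher and 2 lower at an unadjusted p under 0.05. Of 21 sarcomere and Z-disc genes 0 passed (2 higher and 0 lower unadjusted), among which Myot, myotilin of the Z-disc, had the smallest adjusted p (1.16, adjusted p = 0.113).

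Among receptors and signals of the vessels, Grk5, a kinase that turns off G protein-coupled receptors, was at 1.66, 2.31, 1.68 and 1.05 at 24 weeks and at 0.41, 0.54, 0.68 and 0.81 in control (log2 difference 1.06, SE 0.21, adjusted p = 0.0251). Adm, adrenomedullin, a peptide that widens vessels, rose by 0.73 (SE 0.16, adjusted p = 0.0445). Grk5 and Adm were the 2 of 16 genes that passed in the renin-angiotensin and apelin list, though neither encodes a member of those systems itself. In the opposite direction, Aplnr, the apelin receptor, was at 0.77, -0.33, 1.05 and 1.62 at 24 weeks, against 2.61, 2.77, 2.53 and 1.98 in control, and did not pass (-1.69, SE 0.52, adjusted p = 0.115). The adrenergic receptor gene Adra1b had a difference of -0.76 (adjusted p = 0.0574), likewise without overlap. Vwf, von Willebrand factor of the endothelium, was at 4.02, 4.79, 4.12 and 3.55 at 24 weeks and at 2.82, 2.62, 3.27 and 3.00 in control, and rose by 1.19 (SE 0.21, adjusted p = 0.0188). It was the gene among 15 endothelial markers that passed, whereas the general marker Pecam1 differed by 0.35 (adjusted p = 0.243), and the list had a median of 0.19. With the level of the arrays as a block, the median of the endothelial list was -0.05. Igfbp6, a binding protein for insulin-like growth factors, rose by 0.72 (SE 0.14, adjusted p = 0.0231), with 24-week array 1 at 3.75, the other 3 from 3.03 to 3.14 and the control arrays from 2.49 to 2.59. It was the gene of its list of 17 that passed, and 0 of 21 TGF-beta and activin genes did (6 higher and 1 lower unadjusted). In the refits without 1 array, Vwf passed in 5 of 8, Igfbp6 in 4, Grk5 in 2 and Adm in 1, and without control array 4 and 24-week array 3 together 0 genes of these lists passed.

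The downregulated genes belonged to no list, except Cd79b of the T, NK and B cell markers and Echdc2 of fatty acid oxidation. Paqr9, a member of the progestin and adipoQ receptor family, had the largest fall, with 0.49, 0.01, 0.55 and 0.92 at 24 weeks and 1.96, 1.78, 1.32 and 1.11 in control (-1.05, SE 0.23, adjusted p = 0.0414). Ppp1r1a, inhibitor 1 of protein phosphatase 1, which enhances the effects of protein kinase A in heart muscle, was at 0.71, 0.30, 0.39 and 0.35 at 24 weeks, against 1.76, 1.63, 1.11 and 1.01 in control. All 24-week arrays were lower, and it fell by 0.94 (SE 0.17, adjusted p = 0.0225), while its further probe set had a difference of -0.27. Ppm1j, a protein phosphatase gene, fell by 0.91 (SE 0.14, adjusted p = 0.0124), with 0.81 to 1.22 at 24 weeks against 1.62 to 2.19 in control. Crybb1, a crystallin best known from the lens, fell by 0.97 (SE 0.14, adjusted p = 0.00729) and Chrm4, the muscarinic receptor M4, by 0.86 (adjusted p = 0.0423). Chrm4 was at -2.41 to -1.85 at 24 weeks and at -1.48 to -1.01 in control, far below the median of the arrays in both. Car2, carbonic anhydrase 2, fell by 0.64 (SE 0.11, adjusted p = 0.0169), and is named although it is in neither a list nor the leading genes. Asb5, Pdia2, Sapcd2, Pitpnm2 and Pcdh17 fell by 0.80, 0.79, 0.74, 0.73 and 0.72 (adjusted p from 0.0225 to 0.0478). Crybb1 passed in all 8 refits without 1 array, Ppm1j in 6, Car2 in 5, Ppp1r1a and Asb5 in 4, Pdia2, Sapcd2 and Pitpnm2 in 3, and Paqr9, Chrm4 and Pcdh17 in 2.

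Among the named downregulated genes, Adhfe1, which encodes a mitochondrial enzyme that oxidises gamma-hydroxybutyrate, was at 3.13, 3.18, 2.77 and 3.04 at 24 weeks and at 3.83, 3.79, 3.79 and 3.78 in control, and fell by 0.77 (SE 0.14, adjusted p = 0.0211). The control arrays lay close together and the 24-week arrays well below them. Vwa8, a mitochondrial ATPase, fell by 0.69 (adjusted p = 0.0318), Sdr39u1, a dehydrogenase of unknown substrate, by 0.81 (adjusted p = 0.0140), and Timm8a2, of the family of import chaperones of the inner membrane, by 0.73 (adjusted p = 0.0406). The further probe sets for Sdr39u1 had differences of -0.91 and 0.09. The carriers Slc25a15, for ornithine, and Slc25a42, for coenzyme A, fell by 0.48 and 0.42 (adjusted p = 0.0251 and 0.0414), and the peroxisomal channel gene Pxmp2 by 0.68 (adjusted p = 0.0478). These 3 genes are of no list and were chosen after their values were seen. Sdr39u1 passed in 6 of the 8 refits without 1 array, Adhfe1 in 4, Pxmp2 in 3, Vwa8, Timm8a2 and Slc25a15 in 2 and Slc25a42 in 1.

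All 22 genes of mitochondrial fatty acid oxidation had a negative difference, with a median of -0.33 beside 0.00 over all genes, and 1 of them passed. Echdc2, an enoyl-CoA hydratase-like gene, was at 3.68, 2.99, 3.11 and 3.26 at 24 weeks and at 3.89, 3.81, 3.74 and 3.71 in control, and fell by 0.53 (SE 0.12, adjusted p = 0.0480). Acadm, the medium-chain acyl-CoA dehydrogenase, was at 6.71, 6.30, 6.72 and 6.73 at 24 weeks, against 6.96 to 7.03 in control, without overlap (-0.37, SE 0.10, adjusted p = 0.0830). Hadha, of the trifunctional protein, and Hadh, the short-chain hydroxyacyl-CoA dehydrogenase, had differences of -0.44 and -0.68 (adjusted p = 0.0850 and 0.0855). In Acadm, Hadha and Hadh, 24-week array 2 was the lowest. In all, 10 of the 22 genes had each 24-week array below each control array and 14 were lower at an unadjusted p under 0.05. Over all genes, those shares were 4.46% and 7.42%. The mean of the list lay at -0.16, -0.59, -0.29 and -0.22 on the 24-week arrays and between -0.06 and 0.03 on the control arrays. Echdc2 passed in 2 of the 8 refits without 1 array, and 0 genes of the list did without control array 4 and 24-week array 3.

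The steps before oxidation had mostly negative differences and 0 called genes. In the list for the entry of fatty acids, their activation and the carnitine shuttle, 18 of 23 genes had a negative difference (median -0.21), 8 had no overlap with control and 10 were lower and 1 higher at an unadjusted p under 0.05. Over all genes, each 24-week array lay above control in 4.82% and below it in 4.46%, with 7.42% lower and 8.8% higher unadjusted. Slc22a5, the carnitine transporter of the cell membrane, differed by -0.37 (adjusted p = 0.108), Slc25a20, the carnitine-acylcarnitine carrier of mitochondria, by -0.45 (adjusted p = 0.126), and Acsf2, Acsf3 and Acsl6, which activate fatty acids, by -0.57, -0.46 and -0.29 (adjusted p = 0.116, 0.237 and 0.521). Ehhadh, the bifunctional enzyme of peroxisomes, was at -0.15, -1.02, -0.26 and -0.69 at 24 weeks and from 0.27 to 0.60 in control, without overlap (-0.96, SE 0.24, adjusted p = 0.0607). Of the regulators, Rxra, Ppargc1b and Ppara differed by -0.34, -0.25 and 0.23 (adjusted p = 0.219, 0.615 and 0.604), and 0 of 23 regulators passed (1 higher and 5 lower unadjusted). The tricarboxylic acid cycle had a median of -0.16 over 16 genes, with Cs, citrate synthase, at -0.30 (adjusted p = 0.114), and the breakdown of branched-chain amino acids a median of -0.23 over 19 genes, with Bcat2 at -0.58 (adjusted p = 0.116). In these 2 lists 0 genes passed, and 4 and 8 were lower and 0 higher at an unadjusted p under 0.05. The 40 measured subunits of the respiratory chain had a median of -0.09, with 0 called (0 higher and 3 lower unadjusted).

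**Figure D5:**
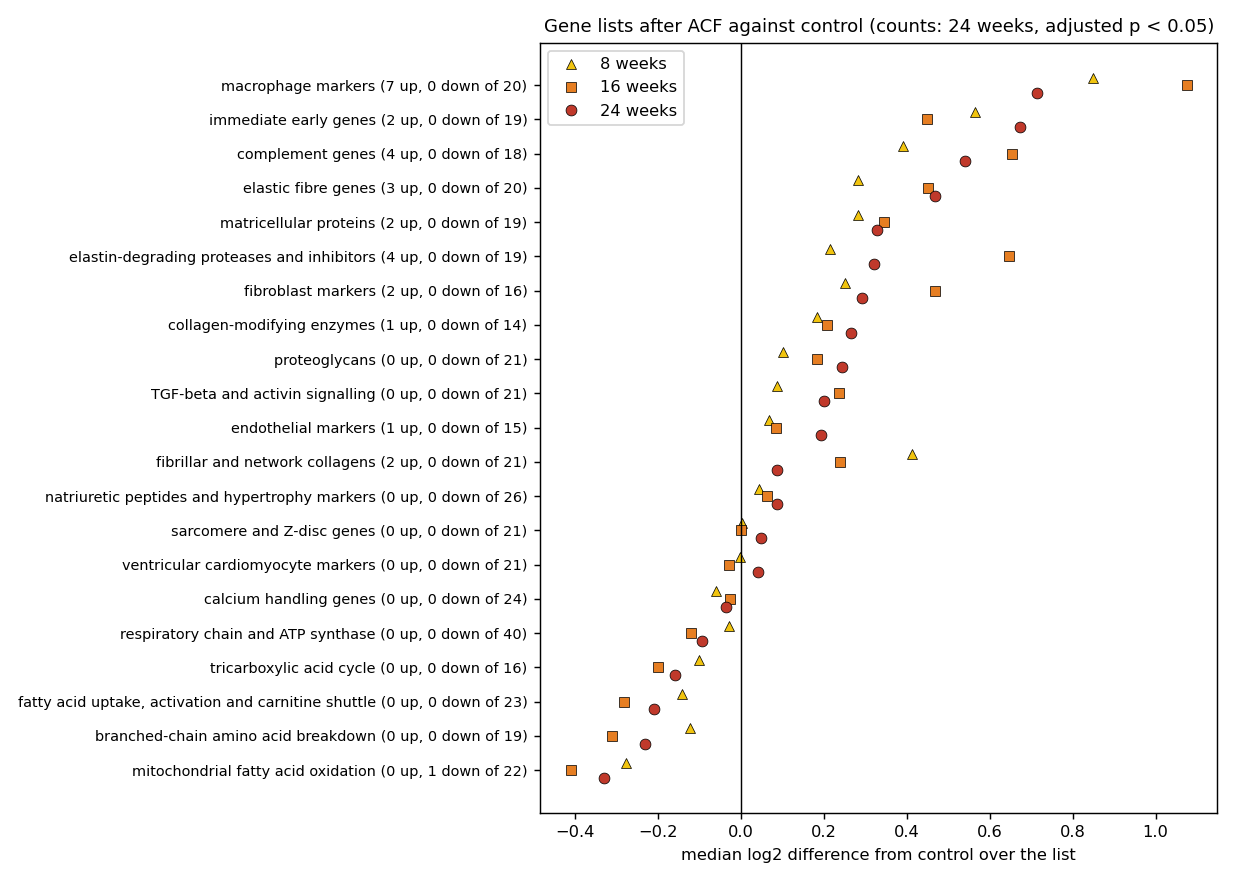
Median log2 difference from control (horizontal axis) over the members of 21 gene lists (vertical axis), for 8 weeks (triangles), 16 weeks (squares) and 24 weeks (circles) after ACF; the 3 share their control arrays. Beside each name stand the members called higher and lower at 24 weeks and the number measured. At 24 weeks the medians run from 0.71 for macrophage markers to -0.33 for mitochondrial fatty acid oxidation.

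Of 27 genes of glucose uptake and glycolysis 0 passed, with 5 higher and 1 lower at an unadjusted p under 0.05. Slc2a4, the insulin-dependent glucose transporter, was at 5.23, 4.54, 5.04 and 5.24 at 24 weeks and at 5.52, 5.49, 5.43 and 5.11 in control (-0.38, SE 0.22, adjusted p = 0.407). Pfkm, Pgam2 and Eno3, the muscle forms of glycolytic enzymes, differed by -0.29, -0.31 and -0.29 (adjusted p = 0.404, 0.487 and 0.640). Pfkfb1, which makes the activator of phosphofructokinase, was at -0.33, -0.76, -0.17 and 0.01 at 24 weeks, against 0.12 to 0.60 in control, without overlap (-0.58, SE 0.17, adjusted p = 0.0940). In the hexosamine pathway, Gfpt2, an isoform of its rate-limiting enzyme, was at 1.95, 2.60, 2.56 and 2.21 at 24 weeks and at 0.96, 1.27, 1.27 and 1.73 in control, and rose by 1.02 (2.03-fold, SE 0.19, adjusted p = 0.0231, 3 of 8 refits without 1 array). It was the gene of 9 in its list that passed. Ogt, the transferase that puts O-GlcNAc on proteins, was at 3.71, 3.55, 3.61 and 3.34 at 24 weeks and from 3.74 to 4.06 in control (-0.32, SE 0.13, adjusted p = 0.219).

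Of 24 calcium handling genes 0 passed (2 higher and 4 lower at an unadjusted p under 0.05, beside 8.8% and 7.42% of all genes). Atp2a2, the calcium pump of the sarcoplasmic reticulum, differed by 0.07 (SE 0.07, adjusted p = 0.716), Pln, its inhibitor phospholamban, by 0.06 (SE 0.07, adjusted p = 0.704), and Ryr2, the release channel, by 0.09 (SE 0.08, adjusted p = 0.625). S100a1, a calcium sensor that enhances contraction, was at 2.59, 2.01, 2.51 and 2.23 at 24 weeks, against 2.72 to 2.82 in control, without overlap (-0.45, SE 0.13, adjusted p = 0.109). Of 23 ion channel genes 0 passed (1 higher and 3 lower unadjusted), and outside that list the potassium channel genes Kcnj14 and Kcnk6 rose by 0.80 and 0.50 (adjusted p = 0.0443 and 0.0358), each in 1 of the 8 refits without 1 array as well. Both were chosen after their values were seen.

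Between 24 and 16 weeks and between 24 and 8 weeks 0 genes passed in the same limma fit. At an unadjusted p under 0.05, 499 genes were higher and 780 lower at 24 than at 16 weeks (9% of all genes), and 393 were higher and 384 lower at 24 than at 8 weeks (5.46%). The methods' t-test with the same adjustment called 1 gene between 24 and 16 weeks, Dbp, and 0 between 24 and 8 weeks. Against the same controls, 829 genes were upregulated and 463 downregulated at 16 weeks, 5.83% and 3.26% of the genes tested, and 7 and 1 at 8 weeks, 0.0492% and 0.00703%. At an unadjusted p under 0.05, 24.3% of all genes differed from control at 16 weeks and 7.82% at 8 weeks. The genes upregulated at 24 weeks had a median difference from control of 0.66, 1.04 and 0.89 at 8, 16 and 24 weeks, and the downregulated genes one of -0.32, -0.57 and -0.64. The 3 comparisons share their controls. Both sets of genes were picked by their 24-week values, which favours larger differences at 24 weeks than at 8 and 16 weeks. For Postn the differences from control were 2.29, 4.28 and 2.66 at 8, 16 and 24 weeks, and that between 24 and 16 weeks was -1.62 (SE 0.54, adjusted p = 0.436). Cpeb1 differed from control by 0.10, 1.42 and 1.57, and Cnpy1 by 0.12, 0.56 and 1.88, at the same times. Between 24 and 8 weeks these 2 genes had log2 differences of 1.47 and 1.76 (adjusted p = 0.319 each).

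The genes nearest to a difference between 24 and 16 weeks included a clock gene and a matrix enzyme. Dbp, an output gene of the circadian clock, was at 3.19, 2.80, 3.24 and 3.04 at 24 weeks and at 1.08, 1.10, 1.09 and 0.93 at 16 weeks, beside 3.29 to 3.77 in control. The 24-week arrays thus lay just below control and far above the 16-week arrays (24 minus 16 weeks 2.02, SE 0.36, adjusted p = 0.0840). On the 7 arrays at the lower level alone, Dbp and Bmal1, the activator of the clock loop, passed, with 2.06 and -1.72 (adjusted p = 0.00403 each). Of those 7 arrays, 4 were at 24 weeks, 2 at 16 weeks and 1 at 8 weeks. Against control, 0 of 16 core clock genes and 0 of 13 output genes passed at 24 weeks (2 higher and 2 lower, and 3 higher and 1 lower, unadjusted). Lox, lysyl oxidase, which cross-links collagen and elastin, was at 1.29, 2.22, 1.63 and 1.07 at 24 weeks and at 3.85, 2.87, 2.95 and 2.53 at 16 weeks, beside 0.84 to 1.16 in control (24 minus 16 weeks -1.50, SE 0.27, adjusted p = 0.0840). Timp4, an inhibitor of metalloproteinases of the heart, was at 2.82, 1.85, 2.95 and 2.89 at 24 weeks and at 1.68, 1.68, 1.31 and 1.83 at 16 weeks (1.00, SE 0.19, adjusted p = 0.0919). Without 24-week array 2, which stood apart for Timp4, both passed, with Lox at -1.72 (adjusted p = 0.0207) and Timp4 at 1.26 (adjusted p = 0.000332). For both genes that array had the 24-week value nearest to 16 weeks, and neither gene passed in any other refit without 1 array.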

How the data were processed

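Left ventricular RNA of 16 rats was hybridised to Affymetrix arrays. Per the labels, the authors obtained log2 values with RMA, which subtracts background, equalises the distributions of the arrays and summarises probes, in Expression Console 1.2. The identifiers in the table belong to a different rat array design from that in the methods. Raw intensities were not used here, and the number of arrays limits the precision. Each array was centred on its median over 31099 probe sets. Of these, 20832 carried 1 gene symbol from the array's annotation, and each of 14218 genes was represented by its brightest probe set on average over all arrays.

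Group means over the 16 arrays were estimated in limma 3.58.1 (R 4.3.3), and Benjamini-Hochberg adjustment ran over the 14218 genes, with 0.05 as the threshold. SE is that of the model. Exact permutation p values are two-sided and, with 4 arrays a group, cannot fall under 0.0286. The functions were tested on simulated data. Genes were named when among the 15 largest rises and 15 largest falls with called, non-overlapping values and an ordinary symbol, when a member of 1 of 48 gene lists with the smallest adjusted p or a defining role, or when a gene of energy metabolism that the study names. Other named genes are marked as such. Members and lists were chosen with earlier results of these data known. Alternatives changed the scaling, the array level, the spread model, the test (the methods' t-test), the filter, the probe sets and the arrays.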

Additional observations from a re-analysis of the deposited data

Results flagged for a closer look

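Of 302 groups of 4 arrays, from 151 named genes in both groups, 25 held a single array far from the other 3 (its gap to the nearest array against the range of the group), and chance alone gives about 1 in 20. Control array 4 was that array in 12 of them. Its values were the highest of the control arrays for the matrix genes Postn (2.07, the others at -0.30 or lower), Mfap5 (4.18), Dcn (6.8), Col14a1 (3.67), Col1a1 (4.01), Col3a1 (5.64), P4ha1 (2.67) and Vcan (0.73), and also for Gpx3 (5.88), Crybb1 (1.25) and the atrial gene Sln (2.50, the others at -0.01 or lower), and the lowest for Cpeb1 (0.10). Control array 1 was low for Myh7 (7.71), and control array 3 was low for Acsf2 (4.18) and Ppara (-0.94) and high for Pfkfb1 (0.60).

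Among the arrays at 24 weeks, array 2 was low for Acadm (6.30), Hadh (5.14), Vwa8 (1.76) and Timp4 (1.85). Array 4 was low for Fcgr2b (0.35) and Maoa (6.71) and high for Pdia2 (-0.05), and array 1 was high for Igfbp6 (3.75) and Suclg2 (5.02). The causes were not tested.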

How the results depend on the processing

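The counts of 87 upregulated and 42 downregulated genes against control stayed within 1.5 times under quantile normalization, cyclic loess, the fit of only the 8 arrays, the trend and robust options and the mean of probe sets. The genes themselves changed more. In the same order, 120, 117, 76, 118 and 108 of the 129 called genes passed again. The number of downregulated genes was 1594 with values as deposited, 18 with the upper 50% of genes by mean, where fewer genes were tested, and 27 with a fold above 1.5. Counts of upregulated and downregulated genes were 2 and 0 with the array level as a block, 0 and 0 with the methods' t-test, 525 and 304 with array weights, and 270 and 94 at the methods' threshold of a fold above 1.5 and an unadjusted p under 0.05. Leaving out 1 array gave 3 to 378 upregulated genes (without control replicate 1 and 24-week replicate 4) and 2 to 180 downregulated genes. Without control replicate 4 and 24-week replicate 3 together, an alternative chosen after seeing the data, there were 21 and 14. The causes were not tested.

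Between 24 and 16 weeks 0 genes passed, against 1 higher and 1 lower on the 7 arrays at the lower level, 1 higher with the methods' t-test, 31 higher and 62 lower at the methods' threshold, and 0 to 2 higher and 0 to 4 lower with 1 array left out. Between 24 and 8 weeks the methods' threshold gave 21 and 10, and the other alternatives gave 0. With the replicate number as a block, 71 genes rose and 38 fell against control. Same-numbered arrays correlated at 0.236, 0.0669, 0.00466 and -0.0165 in their deviations from the group means, so the numbers were not taken as pairs, and not every array correlated best with its own number.

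Only 4 arrays per group were compared, and 24 weeks and control share no array level, so the block rests on the 8- and 16-week arrays. Values near the top of the scale, such as those of Myh7, have little room to rise.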

Other observations

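Some called genes belonged to no comparison above. Uchl1, a neuronal deubiquitinase and 1 of 9 markers of Schwann cells and neurons, was at -0.54, 0.05, -0.29 and -0.81 at 24 weeks and from -1.37 to -1.14 in control (log2 difference 0.86, SE 0.17, adjusted p = 0.0286). Stab1, a scavenger receptor of macrophages and sinusoidal endothelium, was at 2.03, 2.45, 2.28 and 1.66 at 24 weeks and at 1.10, 0.76, 1.04 and 1.47 in control (1.01, SE 0.16, adjusted p = 0.0112). Cybb, the catalytic subunit of the phagocyte NADPH oxidase, rose by 0.85 (adjusted p = 0.0276) without overlap. Maff, a small Maf transcription factor, rose by 1.27 (adjusted p = 0.0358). Chi3l1, a secreted chitinase-like protein, rose by 1.81 (adjusted p = 0.0480), although 24-week array 4, at 0.72, lay under control array 4, at 0.93. Of these genes, those outside the lists were chosen after their values were seen.

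Of 28 cell cycle genes 0 passed (limma), with 5 higher and 0 lower at an unadjusted p under 0.05, and Ccnd2, cyclin D2, had the smallest adjusted p (0.71, SE 0.18, adjusted p = 0.0611). Of 9 adipocyte markers 1 rose, Cfd, while Adipoq, the adiponectin gene, was at -1.33 to -0.92 at 24 weeks and at -1.49 to -1.08 in control, below the median of the arrays in both groups (0.20, adjusted p = 0.540). Pck1 and Car3, of the same list, had differences of 1.00 and 2.05 (adjusted p = 0.152 and 0.402), Pck1 without overlap. The mean of the adipocyte list was 0.47, 0.21, 0.93 and 0.25 above the control mean on 24-week arrays 1 to 4, against -0.07, -0.20, -0.05 and 0.31 on control arrays 1 to 4. The median difference of the adipocyte list was 0.20, and 0.05 with the level of the arrays as a block. The mean of 7 erythroid and blood markers ran from -0.34 to 0.30 at 24 weeks and from -0.44 to 0.69 in control.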
